A study of Mus musculus with 32 samples.

Results

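Expression was examined for 9 genes of iron export, iron storage, iron uptake and heme handling, out of the 29511 genes in the count table. The genes were *Slc40a1*, *Fth1*, *Ftl1*, *Tfrc*, *Trf*, *Slc11a1*, *Slc11a2*, *Hmox1* and *Blvrb*. They were taken as a list of named genes around *Slc40a1*, and were chosen by the count values of *Slc40a1*, which were higher in lungs of *Clic4* knockout mice that carried a tumor than in lungs of knockout mice without one. The comparison of those 2 groups is therefore given below as a description, and its calls support nothing. All 9 genes had enough counts to be tested in every comparison.

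The 32 RNA-seq samples came from virgin female FVB/N mice, 6 to 8 weeks old at the start, that were either wildtype (WT) or constitutive *Clic4* knockout (KO) littermates of heterozygous crosses. Control lungs were taken from 4 KO and 4 WT mice without tumors. 6DT1 cells, a mouse mammary cancer line from a tumor driven by a *Myc* transgene under the MMTV promoter, were placed in the fourth mammary fat pad of KO and WT mice. The lungs, labelled pre-metastatic, and the primary tumors collected 14 days later gave 6 lung and 6 tumor samples from each genotype. The 6DT1 cells carried intact *Clic4* in both kinds of host, so the genotypes of the tumors differ in the host cells within them. The lungs, separated into lobes, and the tumors were snap-frozen and sequenced as bulk tissue, in which fewer cells of a type and less RNA per cell cannot be told apart. Between 4446323 and 8318711 counts were assigned to genes per sample. *Clic4* itself had 206 to 280 CPM (counts scaled to library size, TMM-normalized over all samples) in KO lungs and 587 to 867 CPM in WT lungs, without overlap, and the KO allele, which lacks exon 2, keeps other exons that can give counts. Tumors had 248 to 280 CPM in KO hosts and 296 to 325 CPM in WT hosts. Summed alveolar type 2 markers were at 8360 to 11800 CPM in lungs and 85.4 to 102 CPM in tumors, where *Lamp3* was at 0 in both host groups.

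Iron enters most cells as a complex with transferrin (*Trf*), which binds the transferrin receptor (*Tfrc*) and is taken up into endosomes, from where the divalent metal transporter DMT1 (*Slc11a2*) moves the iron into the cytosol. Iron that is not used is stored in ferritin, a shell of heavy (*Fth1*) and light (*Ftl1*) chains, or leaves the cell through ferroportin (*Slc40a1*), the known iron exporter of mammalian cells. Macrophages also gain iron from heme of engulfed red cells, which heme oxygenase 1 (*Hmox1*) opens to biliverdin, carbon monoxide and iron, while biliverdin reductase B (*Blvrb*) reduces biliverdin and flavins. NRAMP1 (*Slc11a1*) is a metal transporter in the phagosome membrane of macrophages and neutrophils. The iron regulatory proteins bind a short hairpin, the iron responsive element, in several of these mRNAs when cellular iron is low. In a 5′ UTR the bound hairpin blocks translation, and in the 3′ UTR of the transferrin receptor mRNA it protects the mRNA from decay.

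The hairpins are shown because they are a sequence feature shared by *Slc40a1*, both ferritin genes and *Tfrc*. The GENCODE M21 transcripts of GRCm38 were searched on the sense strand for the loop letters CAGTGN closed by 5 base pairs, G with T allowed, with a single unpaired C below the stem. The search returned 29 bases per site, with 6 flanking bases on either side, and the capitals mark the 6 loop letters. The export and storage genes each held 1 match, in exon 1 within the 5′ UTR:
*Slc40a1* (chr1:45925465-45925493, minus strand): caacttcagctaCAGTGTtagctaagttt
*Fth1* (chr19:9982732-9982760, plus strand): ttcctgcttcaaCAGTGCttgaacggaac
*Ftl1* (chr7:45459779-45459807, minus strand): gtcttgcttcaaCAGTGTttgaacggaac

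The uptake receptor *Tfrc* held 4 matches, all in exon 19 within the 3′ UTR and on the plus strand:
*Tfrc* site 1 (chr16:32631219-32631247): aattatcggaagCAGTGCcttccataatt
*Tfrc* site 2 (chr16:32631598-32631626): cattatcgggagCAGTGTcttccataatg
*Tfrc* site 3 (chr16:32631663-32631691): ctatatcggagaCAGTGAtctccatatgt
*Tfrc* site 4 (chr16:32631710-32631738): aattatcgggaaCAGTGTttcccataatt

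A 5′ UTR match was present in 31 of 21901 protein-coding genes (0.142%), of which 3 were among the 9 genes, and a 3′ UTR match in 129 genes (0.589%), of which 1 was. The other 5 genes held no match to these letters in the transcripts searched, and a hairpin that departs from this pattern would be missed. Because the hairpin acts on translation in 5′ UTRs, mRNA counts of *Slc40a1*, *Fth1* and *Ftl1* do not measure that step.

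Per transcript length the 9 genes spanned a wide range, and the ferritin chains were the most abundant. *Ftl1* had group means of 999 to 1535 FPKM (fragments scaled for transcript length and sequencing depth, as deposited) and *Fth1* of 546 to 703 FPKM. *Trf* followed at 104 to 202 FPKM. *Tfrc* had group means of 16.4 to 26.6 FPKM and *Slc11a2* of 8.30 to 20.01 FPKM, and the order of these 2 genes was the same in all 6 groups. *Hmox1* and *Blvrb* had similar levels in lungs, at 10.5 to 11.8 and 10.0 to 12.9 FPKM, with overlapping samples. *Slc40a1* was the lowest or among the lowest, at 1.96 to 5.49 FPKM, beside *Slc11a1* at 3.83 to 6.19 FPKM in lungs. The samples of *Slc40a1* and *Slc11a1* overlapped in all 4 lung groups. The FPKM of a gene divided by its CPM varied 2.18-fold between samples for *Slc40a1* and 3.45-fold for *Slc11a1*, against 1.13-fold for *Ftl1*. RSEM's effective length can move with the isoforms it assigns, and its part in this variation was not tested. Because of the variation, CPM and counts are used for each gene below.

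**Figure D1:**
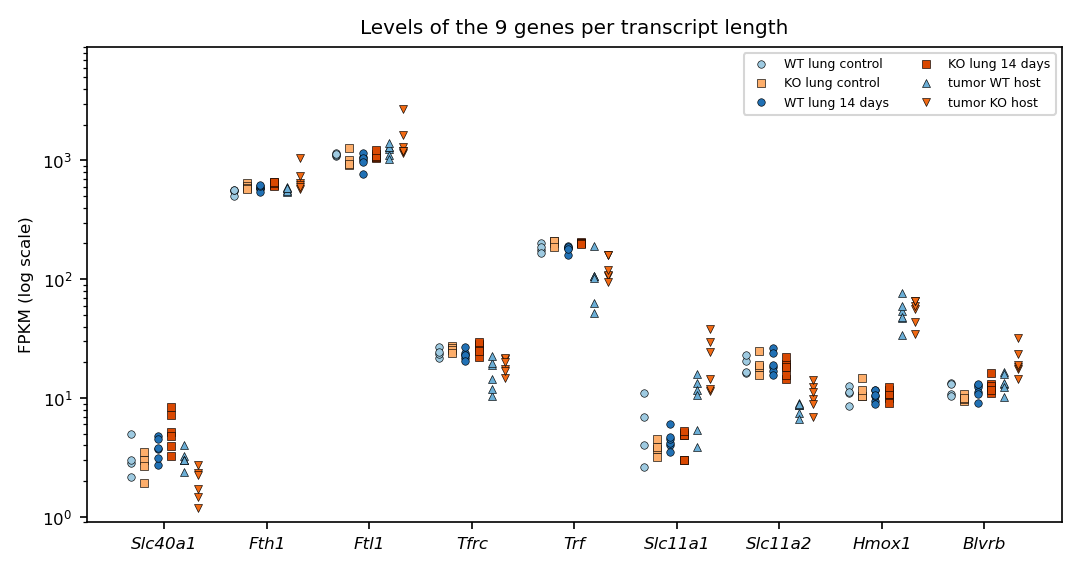
Deposited FPKM (log axis) of each of the 9 genes in every sample, by group, with circles and squares for WT and KO lungs and triangles for tumors. *Ftl1* and *Fth1* lie highest and *Slc40a1* is lowest or among the lowest, and the tumor groups of *Hmox1* and *Slc11a1* have means above those of every lung group.

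*Slc40a1* (ENSMUSG00000025993, chromosome 1, 45908068 to 45926523, minus strand) encodes ferroportin. In control lungs the 4 KO samples had 10.9, 9.15, 6.07 and 6.36 CPM and the 4 WT samples 6.88, 8.06, 6.99 and 9.36 CPM. At 14 days the 6 KO lungs ranged from 10.5 CPM over a median of 15.3 to 20.6, and the 6 WT lungs from 8.60 over 11.7 to 14.7. Thus 5 of the 6 KO lungs at 14 days, and 4 of the 6 WT lungs, lay above every control lung. These levels rest on 34 to 127 counts per lung.

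The comparison that chose the gene gave a log2 difference of 0.92 ± 0.20 (SE) in KO lungs, a mean of 15.2 ± 3.64 CPM (SD, n = 6) at 14 days and 8.12 ± 2.31 (SD, n = 4) in controls. The limits for lungs were an FDR under 0.25 together with at least a 1.5-fold difference. In this comparison 0.262% of all genes tested passed them (1.05% with the FDR limit alone). That *Slc40a1* is among these genes, and is the only one of the 9, follows from how the list was chosen and is no result. The log2 difference lay between 0.79 and 1.09 with each lung left out in turn, and without KO control replicate 2 (0.98), 3 (0.79) or 4 (0.82) the FDR limit was not met.

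In WT lungs, which took no part in the choice, *Slc40a1* differed by 0.59 ± 0.20 on the log2 scale, a 1.51-fold difference between means of 11.7 ± 2.35 CPM (SD, n = 6) at 14 days and 7.82 ± 1.15 (SD, n = 4) in controls. The groups overlapped, and with an FDR of 0.261 in edgeR's quasi-likelihood test the gene fell just outside the limit of 0.25. It passed with DESeq2 (FDR 0.189), with a minimum of 10 counts in every sample (0.240), with only the 2 groups in the fit (0.232), and without WT 14-day replicate 1 (0.235), 2 (0.240) or 3 (0.249). It did not pass in the other 7 fits with a lung left out (FDR up to 0.461), with RLE size factors (0.260) or with no filter on low counts (0.355). With the replicate number as a block (0.45), with offsets for GC content (0.53) and with both (0.41) the log2 difference was also short of 1.5-fold. In this comparison 0.574% of all genes passed both limits and 2.33% the FDR limit alone, and none of the 9 passed either in edgeR. At an unadjusted p under 0.05 were 11.8% of all genes and, of the 9, *Slc40a1* and *Fth1*.

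Control lungs of the 2 genotypes differed in *Slc40a1* by 0.05 ± 0.23 on the log2 scale. KO lungs at 14 days exceeded WT lungs at 14 days by 0.37 ± 0.17, with overlapping groups, and the difference between the genotypes' responses to the tumor was 0.32 ± 0.28. These 3 estimates contain KO lungs by which the gene was chosen, and they are given as descriptions from which nothing is concluded.

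**Figure D2:**
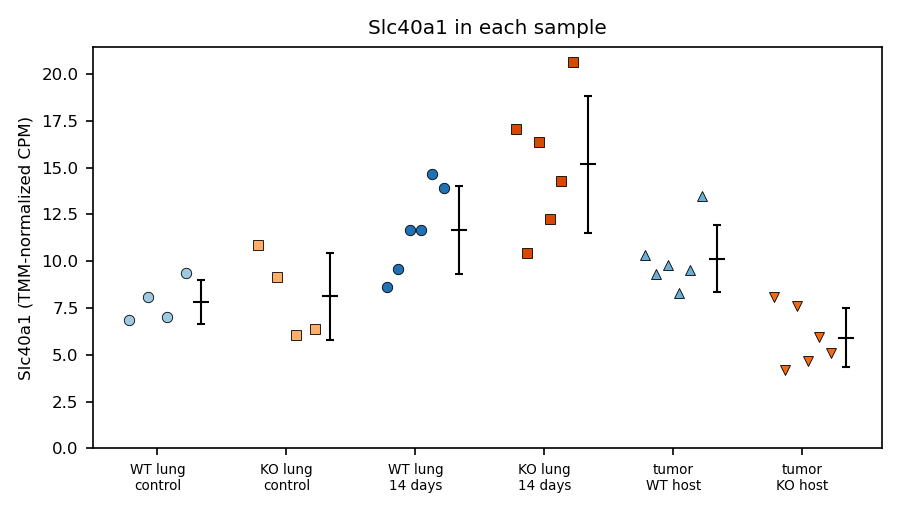
*Slc40a1* in TMM-normalized CPM for each sample of the 4 lung groups and 2 tumor groups, with the mean and SD of each group. KO lungs at 14 days reach 20.6 CPM, and tumors from KO hosts reach at most 8.08 CPM, under every tumor from WT hosts.

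Markers of neutrophils also differed between control and 14-day lungs. Their summed level (8 genes) was 37.6 to 377 CPM, median 179, in KO lungs at 14 days and 53.5 to 99.5 in KO controls, and 89.7 to 328, median 180, in WT lungs at 14 days and 49.5 to 86.4 in WT controls. Of the 7 markers tested, *Cxcr2* and *Csf3r* were past the limits and higher at 14 days in KO lungs (0.262% of all genes). In WT lungs *S100a8*, *S100a9* and *Cxcr2* were past the limits and higher (0.574% of all genes). In the KO lungs the 2 groups overlapped in this sum, since 14-day replicate 2, at 37.6 CPM, lay below every control. The defining marker *Ly6g* was at 0 in the KO control lungs and in both tumor groups.

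Markers of other cells were summed in the same way. Red cell markers (9 genes) had medians of 4260 CPM in KO lungs at 14 days and 3810 in KO controls, and of 4010 and 4620 in the matching WT groups, with 11800 in KO 14-day replicate 6 as the highest lung. Alveolar macrophage markers (10 genes) had 490 to 844 CPM in KO lungs at 14 days and 626 to 843 in KO controls, and 442 to 605 in WT lungs at 14 days and 385 to 597 in WT controls. Resident macrophage markers stayed between 384 and 579 CPM in all 20 lungs. *Marco* fell past the limits in WT lungs at 14 days, and no other macrophage marker passed in either response. The part of any of these cells in the *Slc40a1* levels was not tested.

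**Figure D3:**
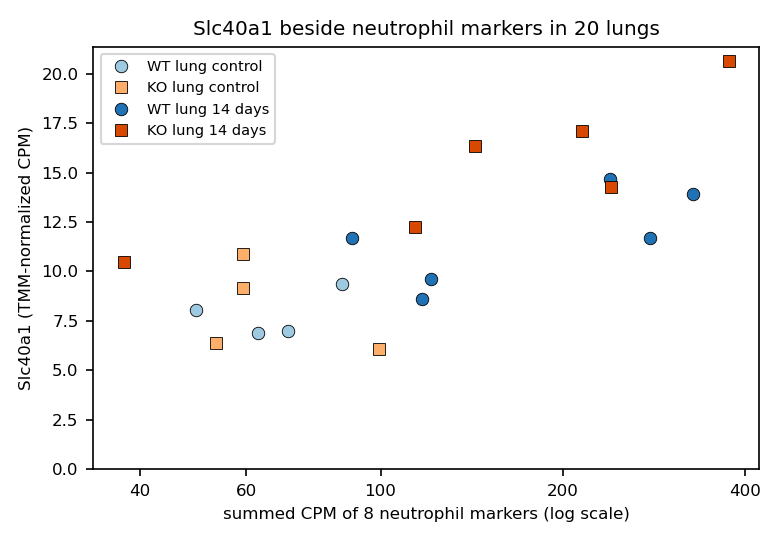
*Slc40a1* (TMM-normalized CPM) against the summed CPM of 8 neutrophil markers (log axis) in the 20 lungs, by group. The control lungs reach at most 99.5 CPM of markers, and the 14-day lungs spread from 37.6 to 377.

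The genes most like *Slc40a1* over the 20 lungs were found by Pearson's r of log2(CPM + 1) among 16028 other genes. They were *Clec5a*, a receptor of myeloid cells (r = 0.88, Spearman's rho = 0.87), *Ppp1r3d* (0.86), *Trim30b* (0.82), *Gm37844* (0.81) and *Rasgrp4* (0.79). Without the 2 lungs farthest from the median the r of *Clec5a* was 0.86. Of the other 8 listed genes, *Fth1* came closest with an r of 0.59 (rank 124), before *Slc11a1* with 0.49 (rank 351). *Hmox1* (-0.26) and *Trf* (-0.19) were below 0, and *Blvrb*, *Slc11a2*, *Ftl1* and *Tfrc* lay between 0.06 and 0.15. Without the same 2 lungs *Slc11a1* had 0.35, and *Blvrb* (-0.06) and *Ftl1* (-0.14) were below 0. Group means were not removed, and the lungs include the KO lungs by which *Slc40a1* was chosen. The samples also share library depth, so these values describe that set of samples only and nothing is concluded from them.

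In tumors the *Slc40a1* levels of the host genotypes lay in the opposite order. Tumors from KO hosts had 4.19 to 8.08 CPM with a median of 5.51, and tumors from WT hosts 8.29 to 13.5 with a median of 9.68. The 2 groups did not overlap, the closest pair being KO host replicate 1 at 8.08 and WT host replicate 4 at 8.29 CPM. The levels rest on 18 to 62 counts per tumor.

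The log2 difference between KO and WT hosts was -0.77 ± 0.18, a level 1.71-fold higher in WT hosts, at an FDR of 0.0346. This is past the FDR limit of 0.05 for tumors and short of the 2-fold limit, so *Slc40a1* was not called. Non-overlapping groups were seen for 1.95% of all genes tested in tumors and, among the 9, for *Slc40a1* alone. The FDR lay between 0.0206 and 0.0988 with each tumor left out in turn and was under 0.05 in 3 of 12 such fits, those without KO host replicate 1 or 3 or WT host replicate 4, while the estimate stayed between -0.67 and -0.88. It was 0.00653 with DESeq2 and 0.0579 with no filter on low counts.

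Set beside each other, the genotype difference was 0.37 ± 0.17 in 14-day lungs and -0.77 ± 0.18 in tumors. The difference between the 2, tumor minus lung, was -1.15 ± 0.25 on the log2 scale in a fit of the 24 samples taken at 14 days. This comparison was added after the values had been seen, it contains the 14-day KO lungs, and it is a description. The estimate lay between -1.26 and -1.04 with each of these samples left out. The FDR of *Slc40a1* was under 0.05 in 15 of these 24 fits, and not without KO lung replicate 1, 3 or 6, WT lung replicate 2 or 3, KO host tumor replicate 5 or 6 or WT host tumor replicate 3 or 5. Among all genes 0.707% passed that limit with every sample in the fit, and the 8 genes other than *Slc40a1* did not. As *Slc40a1* was chosen by some of these lungs, its passes in this comparison support nothing. Resident macrophage markers (10 genes) had 1030 to 1420 CPM in tumors from KO hosts, median 1340, and 714 to 1360 in tumors from WT hosts, median 1170. The groups overlapped in these sums, and the part of these cells in the *Slc40a1* levels of tumors was not tested.

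Neither ferritin chain passed the limits in a comparison of lungs. *Fth1* (chromosome 19, 9980598 to 9985098, plus strand), whose heavy chain oxidizes iron for storage, had 380 to 420 CPM in the KO control lungs and 333 to 366 in the WT control lungs, without overlap. Its values in KO control lungs were 420, 387, 387 and 380 CPM, and in WT control lungs 366, 333, 361 and 361. The difference of 0.15 ± 0.05 on the log2 scale had an FDR of 0.314. Over the alternatives the FDR was as low as 0.134, and the difference stayed short of 1.5-fold. Groups of control lungs did not overlap for 7.57% of all genes, and for 2 of the 9, *Fth1* and *Blvrb*. The alveolar macrophage marker sums also did not overlap between control genotypes, at 626 to 843 CPM in KO and 385 to 597 in WT lungs, and their part in the *Fth1* and *Blvrb* values was not tested. The same 10 genes summed to 172 to 327 CPM in tumors from KO hosts, so the sum is not specific to alveolar macrophages.

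At 14 days *Fth1* had 391 to 431 CPM in KO lungs and 345 to 397 in WT lungs, with overlapping groups and a log2 difference of 0.13 ± 0.04 (FDR 0.378). This FDR was as low as 0.23 over the alternatives, also short of 1.5-fold. The responses to the tumor were 0.08 ± 0.05 in KO lungs and 0.10 ± 0.05 in WT lungs (WT FDR 0.406). *Ftl1* (chromosome 7, 45457944 to 45459884, minus strand), the light chain, had 772 ± 118 CPM in KO and 839 ± 22.1 in WT control lungs (SD, n = 4 each), and 831 ± 46.9 in KO and 743 ± 97.4 in WT lungs at 14 days (SD, n = 6 each). It differed by 0.11 ± 0.09 in KO lungs and by -0.16 ± 0.09 in WT lungs (WT FDR 0.479), and by -0.12 ± 0.10 between control genotypes (FDR 0.654). With GC offsets these differences were closer to 0, at 0.03 in KO lungs and -0.06 in WT lungs, and the last turned direction, at 0.05.

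The FPKM of *Ftl1* divided by that of *Fth1* was 2.05 ± 0.09 (SD, n = 4) in WT control lungs and 1.70 to 1.74 in the other lung groups. In tumors it was 2.14 ± 0.24 in KO hosts and 2.15 ± 0.26 in WT hosts (SD, n = 6 each). Both ferritin genes have near-identical pseudogene copies between which RSEM may split reads, so their levels and this ratio are uncertain.

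In tumors the ferritin values of KO hosts were spread by 1 library. *Fth1* had 395 to 724 CPM in KO hosts, median 445, and 354 to 425 in WT hosts, median 384. *Ftl1* had 930 to 2157 CPM in KO hosts, median 1019, and 836 to 1125 in WT hosts, median 962. The highest value of both was KO host replicate 5, and the next, replicate 6, had 503 and 1283 CPM. The log2 differences were 0.34 ± 0.12 for *Fth1* (FDR 0.187) and 0.37 ± 0.18 for *Ftl1* (FDR 0.348), and neither passed. Without replicate 5 of the KO hosts they were 0.20 and 0.13.

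The uptake genes *Tfrc* and *Trf* did not pass the limits in any comparison within lungs or within tumors. *Tfrc* (chromosome 16, 32608920 to 32632794, plus strand) had 77.8 to 113 CPM in lungs, with a response of 0.00 ± 0.08 in KO lungs and 0.06 ± 0.08 in WT lungs (WT FDR 0.813). KO control lungs exceeded WT control lungs by 0.19 ± 0.09 with overlapping groups (FDR 0.406). In tumors it had 47.5 to 87.8 CPM in KO hosts and 40.5 to 72.3 in WT hosts, a difference of 0.30 ± 0.16 (FDR 0.376).

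*Trf* (chromosome 9, 103204001 to 103230444, minus strand) was even across lungs at 265 to 327 CPM. Its responses were -0.05 ± 0.05 in KO and -0.02 ± 0.05 in WT lungs (WT FDR 0.892). Among tumors it ranged from 141 to 281 CPM in KO hosts and from 82.8 to 317 in WT hosts, with the host difference at 0.34 ± 0.27 (FDR 0.594). It ran from 0.21 without WT host replicate 3 to 0.67 without WT host replicate 6 (FDR 0.0810), and was 0.22 without KO host replicate 2, with no such fit past the limit of 0.05.

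*Slc11a2* (chromosome 15, 100387898 to 100425072, minus strand) had 33.4 to 42.9 CPM in lungs. Responses were -0.05 ± 0.07 in KO and 0.06 ± 0.07 in WT lungs (WT FDR 0.762), and the tumor host difference was 0.23 ± 0.13 (FDR 0.416).

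*Slc11a1* (chromosome 1, 74375195 to 74386062, plus strand), the phagosomal relative of *Slc11a2*, was higher in tumors from KO hosts. The KO hosts had 17.1, 21.2, 19.9, 23.6, 48.8 and 40.1 CPM, and the WT hosts 19.7, 14.1, 14.8, 8.78, 14.7 and 8.71 CPM. WT host replicate 1 lay within the KO range, so the groups overlapped, and KO host replicates 5 and 6 stood well above the other 4.

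The log2 difference was 1.09 ± 0.27, 2.12-fold, with an FDR of 0.0440, and *Slc11a1* was the only one of the 9 genes past both limits for tumors, FDR under 0.05 and 2-fold, which 1.06% of all genes passed. At the FDR limit alone 2 of the 9 passed, *Slc11a1* higher and *Slc40a1* lower, and 2.51% of all genes. The call was lost without KO host replicate 5 (0.86, FDR 0.111) or 6 (0.96, FDR 0.124), and without WT host replicate 2 (FDR 0.0822), 3 (0.0900), 4 (0.0991), 5 (0.104) or 6 (0.0634). The estimate stayed between 0.86 and 1.23 over all 12 of these fits. The FDR was also over 0.05 with the replicate number as a block (1.04, FDR 0.115), with GC offsets (1.05, FDR 0.0635) and with both (0.98, FDR 0.147). The call held with DESeq2 (FDR 0.00307), RLE size factors and both other filters on low counts.

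The resident macrophage marker sum of KO host replicates 5 and 6 was 1419 and 1380 CPM, the highest of its group, with replicates 1, 2, 3 and 4 at 1316, 1030, 1362 and 1283. In WT hosts the highest *Slc11a1*, replicate 1, went with the highest sum, 1364 CPM. The lowest sum, 714 CPM, was in replicate 4, and the sum of replicate 6, the lowest in *Slc11a1*, was 1200 CPM. Neutrophil markers were at 21.2 to 74.6 CPM in tumors from KO hosts and 23.9 to 51.4 in tumors from WT hosts, and adipocyte markers (6 genes) at 111 to 548 and 95.4 to 224 CPM. The part of these cells in the *Slc11a1* difference was not tested. In lungs *Slc11a1* had 3.65 to 10.0 CPM, with responses of 0.44 ± 0.24 in KO and -0.07 ± 0.23 in WT lungs (WT FDR 0.935).

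Neither heme gene passed the limits within lungs or within tumors. *Hmox1* (chromosome 8, 75093621 to 75100589, plus strand) had 11.8 to 20.3 CPM over the 20 lungs, and no lung group stood apart. Its responses were -0.12 ± 0.13 in KO and -0.04 ± 0.12 in WT lungs (WT FDR 0.919), and control lungs of the genotypes differed by 0.14 ± 0.14 (FDR 0.720). Tumors had 49.1 to 96.1 CPM in KO hosts, median 86.1, and 51.0 to 107 in WT hosts, median 71.0, with a host difference of 0.08 ± 0.18 (FDR 0.886).

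*Blvrb* (chromosome 7, 27447978 to 27466144, plus strand) had 6.64, 5.91, 7.18 and 6.36 CPM in KO control lungs and 9.77, 8.96, 8.65 and 7.45 in WT control lungs, without overlap. The difference of -0.42 ± 0.14 had an FDR of 0.289, which was 0.247 without WT control replicate 4. At 14 days the genotypes overlapped, at 6.42 to 9.58 CPM in KO and 6.53 to 8.93 in WT lungs. The responses were 0.31 ± 0.13 in KO and -0.16 ± 0.13 in WT lungs (WT FDR 0.635), and their difference of 0.48 ± 0.18 had an FDR of 0.488.

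In tumors *Blvrb* had 10.5 to 24.1 CPM in KO hosts, median 14.9, and 7.32 to 12.6 in WT hosts, median 9.10. The difference of 0.72 ± 0.20 had an FDR of 0.0740, and with a tumor left out in turn the FDR ran from 0.0345 to 0.186, under 0.05 without KO host replicate 4 or WT host replicate 6. With DESeq2 the FDR was 0.0227, short of 2-fold as in edgeR. KO host replicate 5, the library with the highest *Fth1*, *Ftl1* and *Slc11a1*, also had the highest *Blvrb* and *Hmox1* of its group.

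**Figure D4:**
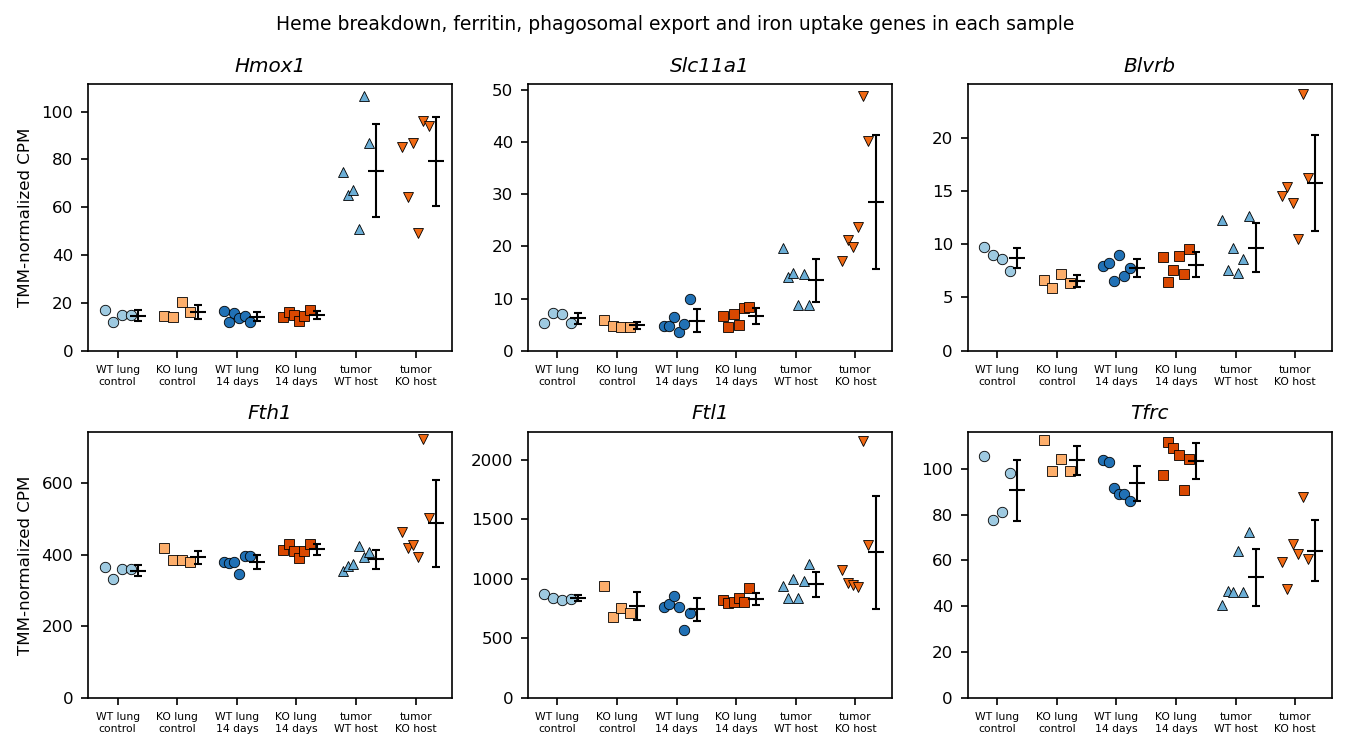
TMM-normalized CPM of *Hmox1*, *Slc11a1*, *Blvrb*, *Fth1*, *Ftl1* and *Tfrc* in each sample by group, with mean and SD. *Hmox1* separates tumors from lungs, *Slc11a1* is highest in tumors from KO hosts, and KO host replicate 5 is the top tumor for *Fth1*, *Ftl1* and *Blvrb*.

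Over the 9 genes the within-tissue comparisons gave small numbers of calls. Between control lungs of the 2 genotypes none passed the limits in edgeR or DESeq2, which 0.231% of all genes did in edgeR (0.973% with the FDR limit alone). At 14 days the estimates for KO against WT lungs ran from 0.06 to 0.19 in the 8 genes other than *Slc40a1*, where 8106 of 16029 genes tested had estimates above 0, and none of the 9 passed the limits in edgeR (0.212% of all genes) or DESeq2. The interaction of genotype and tumor had no call among the 9 in either tool (0.0499% of all genes in edgeR). In tumors 8 of the 9 estimates were above 0, *Slc40a1* being the exception, as were 6602 of 13830 genes tested, with a median of 0.341 against -0.00979 for all genes. These values include KO host replicate 5, without which *Fth1* was at 0.20 and *Ftl1* at 0.13. Every one of the 9 genes had overlapping groups in both responses and in KO against WT lungs at 14 days. Groups that did not overlap were seen for 2.16% of all genes in the response of KO lungs, 2.88% in that of WT lungs and 0.53% in lungs at 14 days. The responses, the 14-day comparison and the interaction share samples, so their estimates are not independent of each other.

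At an unadjusted p under 0.05, *Tfrc*, *Slc11a2*, *Fth1* and *Blvrb* stood among the 9 genes in control lungs (11.6% of all genes). Leaving out *Slc40a1*, which is described only, *Fth1* did so in KO against WT lungs at 14 days (8.34% of all genes), and *Ftl1* and *Blvrb* in the interaction (8.53% of all genes). In tumors these were *Slc40a1*, *Fth1*, *Slc11a1* and *Blvrb* (15.5% of all genes).

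**Figure D5:**
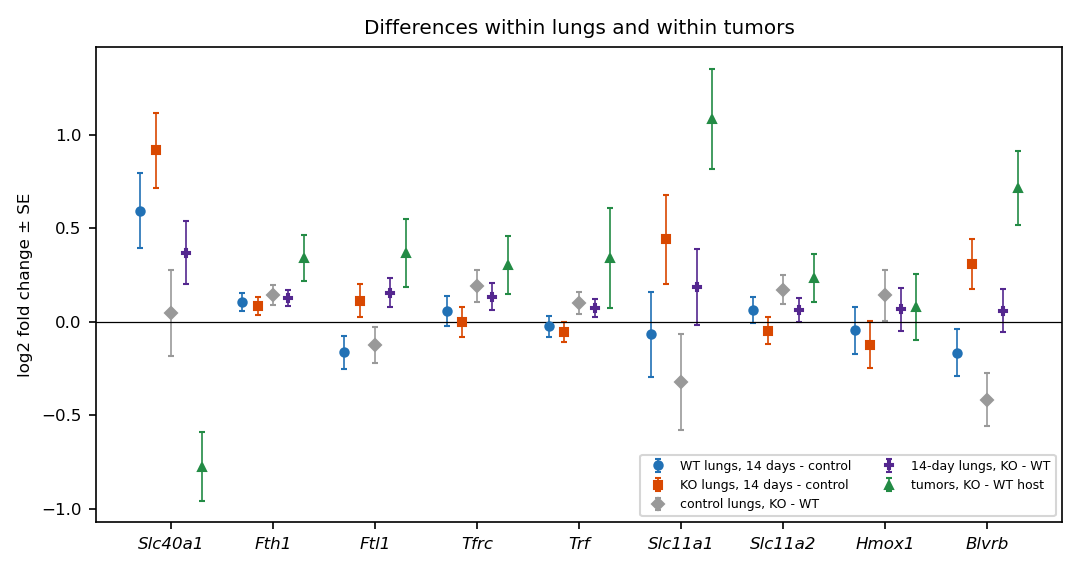
Log2 fold change ± SE of each gene in the 2 responses to the tumor in lungs, in KO against WT lungs without and with a tumor, and in tumors from KO against WT hosts. *Slc40a1* is the only gene with an estimate above 0.5 in lungs and the only one below 0 in tumors.

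Tumors were also compared with the 14-day lungs of the same kind of host. Tissue, cell makeup and implanted cells all change together in this comparison and cannot be told apart. Which lung and which tumor came from the same mouse is not given in the sources used here, and the fit treats them as separate samples. *Hmox1* was 5.24-fold higher in tumors than in lungs of WT hosts (2.39 ± 0.17 on the log2 scale, FDR 1.0e-12) and 5.28-fold higher in KO hosts (2.40 ± 0.17), without overlap in either. *Slc11a1* was higher by 1.21 ± 0.28 in WT hosts (FDR 0.000382) and by 2.10 ± 0.27 in KO hosts (FDR 9.63e-08). These 2 genes passed the limits in WT hosts, where 38.1% of all genes did.

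In KO hosts *Hmox1*, *Slc11a1* and *Slc40a1* passed (37.1% of all genes), the last with a difference of -1.38 ± 0.18 that includes the lungs by which it was chosen. In WT hosts the *Slc40a1* difference was -0.22 ± 0.17 (FDR 0.246), and it turned direction with GC offsets (0.07, with or without the replicate block). With the FDR limit alone 6 of the 9 genes passed in WT hosts (75.5% of all genes) and 9 in KO hosts (74.2%). Tumors and lungs did not overlap in CPM for 3 of the 9 genes in WT hosts, *Hmox1*, *Tfrc* and *Slc11a2*, and for 7 in KO hosts, where *Fth1* and *Trf* overlapped, against 55.9% and 54.4% of all genes.

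Uptake genes were lower in tumors past the FDR limit of 0.05 but short of 2-fold. *Tfrc* differed by -0.85 ± 0.13 in WT hosts (FDR 9.77e-07) and -0.69 ± 0.12 in KO hosts (FDR 1.80e-05), and *Slc11a2* by -0.70 ± 0.10 and -0.54 ± 0.10. *Trf* differed by -0.86 ± 0.21 in WT hosts (FDR 0.000629) and -0.59 ± 0.21 in KO hosts (FDR 0.0124). It passed the 2-fold limit in WT hosts, at -1.17, without WT tumor replicate 6, the tumor with the highest *Trf*. With GC offsets *Tfrc* was at -0.55 in WT and -0.40 in KO hosts and *Slc11a2* at -0.44 and -0.32, still past the FDR limit, while *Trf* in KO hosts was at -0.39 and no longer past it (FDR 0.0751).

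For the ferritin chains the tissue differences were smaller. *Ftl1* differed by 0.34 ± 0.15 in WT hosts (FDR 0.0407) and 0.55 ± 0.15 in KO hosts (FDR 0.00191), and *Fth1* by 0.01 ± 0.10 and 0.23 ± 0.10 (KO FDR 0.0411). With a library left out, the FDR ran from 0.0300 to 0.154 for *Ftl1* in WT hosts and from 0.0123 to 0.211 for *Fth1* in KO hosts, and was under 0.05 in 4 of 12 fits for either gene. Without KO tumor replicate 5 the differences in KO hosts were 0.32 for *Ftl1* and 0.08 for *Fth1*. With GC offsets *Fth1* was at 0.28 in WT and 0.45 in KO hosts, past the FDR limit in both, as was *Blvrb* in WT hosts (0.52). With DESeq2, RLE size factors or either other filter on low counts, neither *Ftl1* in WT hosts nor *Fth1* in KO hosts was past it. *Blvrb* differed by 0.31 ± 0.17 in WT hosts (FDR 0.111) and 0.96 ± 0.17 in KO hosts (FDR 1.26e-05), the latter past 2-fold without KO tumor replicate 4 (1.05), with GC offsets (1.14) and with GC offsets and the replicate block (1.13). Resident macrophage markers were also higher in tumors, with 8 of 10 past the limits in either host (38.1% of all genes in WT and 37.1% in KO hosts, in either direction), and endothelial markers were at 2670 to 3000 CPM in lungs and 98.5 to 180 CPM in tumors. Their part in these differences was not tested.

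The wider pathway was read from 70 other genes in 7 lists, of which 60 had enough counts in lungs, 57 in tumors and 62 in the fit of both tissues. None of the 60 passed both limits in any lung comparison in edgeR or DESeq2, and 5 to 8 of them had an unadjusted p under 0.05 in edgeR. These counts are near the share of all genes, which was 8.34% to 11.8% in the 4 comparisons other than the response of KO lungs. Past the FDR limit of 0.25 alone in KO lungs with a tumor (1.05% of all genes) was *Heph*, the ferroxidase partner of ferroportin. It differed by -0.43 ± 0.11, in the comparison that is given as a description. In WT lungs (2.33% of all genes) *Fbxl5*, which marks iron regulatory protein 2 for degradation, differed by 0.20 ± 0.05 (FDR 0.178). *Bmp6*, which drives hepcidin, differed by -0.23 ± 0.07 on the log2 scale (FDR 0.246). Between control lungs (0.973% of all genes) *Lrp2*, an endocytic receptor, was higher in KO lungs by 0.33 ± 0.08 (FDR 0.220). *Cp*, the plasma ferroxidase, was higher by 0.29 ± 0.08 (FDR 0.249).

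*Hamp*, the gene of the hormone hepcidin that removes ferroportin from the cell surface, had 0 to 20 counts per sample and was not tested. The mRNAs of the iron regulatory proteins showed values near 0 in WT lungs, at -0.02 ± 0.06 for *Aco1* (FDR 0.936) and 0.11 ± 0.08 for *Ireb2* (FDR 0.593).

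Among the iron-binding defence genes, *Lcn2*, which captures bacterial siderophores, had responses of -0.38 ± 0.21 in KO and -0.56 ± 0.21 in WT lungs (WT FDR 0.317). *Ltf*, or lactoferrin, had -0.30 ± 0.30 and 0.54 ± 0.31 (WT FDR 0.507). In tumors from KO against WT hosts *Ltf* differed by 1.05 ± 0.36 (FDR 0.169), *Lcn2* by 0.51 ± 0.31 (FDR 0.465), the hemoglobin scavenger *Hp* by 0.60 ± 0.22 (FDR 0.187) and its receptor *Cd163* by -0.21 ± 0.24 (FDR 0.740). Of the 57 genes tested there, *Alas1*, the first enzyme of heme synthesis, passed the FDR limit alone (2.51% of all genes). It differed by 0.43 ± 0.09 (FDR 0.0147). None of the 57 passed both limits in edgeR, where 10 had an unadjusted p under 0.05 (15.5% of all genes), or in DESeq2.

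Between tissues 23 of the 62 pathway genes passed both limits in each host genotype, beside 38.1% of all genes in WT and 37.1% in KO hosts, so the lists are not set apart by this count. They were 9 higher and 14 lower in tumors of WT hosts and 10 higher and 13 lower in KO hosts. *Slc39a14* had 175 CPM in tumors and 21.7 in lungs of WT hosts (2.99 ± 0.13 on the log2 scale), and *Slc39a8* 4.22 and 135 CPM (-5.06 ± 0.28). The ferrireductase *Steap2* was higher in tumors by 2.20 ± 0.10 and the reductase *Cybrd1* lower, at -2.90 ± 0.26.

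*Cd163* was at 66.1 CPM in tumors and 6.20 in lungs of WT hosts (3.39 ± 0.26), and the ferritin iron chaperones *Pcbp1* and *Pcbp2* were higher by 1.47 ± 0.09 and 1.07 ± 0.07. *Alas1* was at 25.4 CPM in tumors and 262 in lungs (-3.38 ± 0.12) and the erythroid *Alas2*, whose 5′ UTR also holds a match to the hairpin search, at 4.87 and 126 CPM (-4.69 ± 0.32). *Heph* differed by -1.91 ± 0.17 and *Bmp6* had 0.529 CPM in tumors and 56.9 in lungs. Red cell markers were at 26.5 to 106 CPM in tumors, with *Rhag* at 0 in both host groups, and at 3050 to 11800 in lungs, and their part in the *Alas2* difference was not tested.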

How the data were processed

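The study's authors aligned paired-end reads of stranded mRNA libraries to GRCm38 with STAR and quantified genes with RSEM. They deposited RSEM's expected counts per gene as whole numbers without normalization, and FPKM, which the authors took from RSEM, for 29434 gene symbols. Total counts per sample had a median of 5384934, so genes with few counts are measured with wide counting error. The labels name each sample separately, and p-values measure the spread between these samples.

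Counts were tested with edgeR 4.0.16 (quasi-likelihood test, TMM, filterByExpr, R 4.3.3) in 1 fit of the 20 lungs (16029 genes), 1 of the 12 tumors (13830) and 1 of the 24 samples taken at 14 days (16115). Benjamini-Hochberg FDR ran over all genes of a fit. As in the study, the limits were an FDR of 0.25 and 1.5-fold in lungs (FDR alone for the interaction) and an FDR of 0.05 and 2-fold in tumors, also used between tissues. The members and gene lists were chosen with earlier results of these data known. Named are the 9 genes, at most 3 pathway genes per list, direction and comparison among those past the limits, and a few fixed names. Genes past the FDR limit alone and single cell markers were named after their values were seen.

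Alternatives were DESeq2 1.42.0, RLE size factors, other filters, the FDR limit alone, fits of only the groups compared, the replicate number as a block and each sample left out. GC offsets (loess, span 0.5) and the comparison of genotype effects between tissues were added after seeing the data. In simulated data 100 genes were changed 2-fold and 100 others 3-fold, and calls were made at the FDR limit alone. Of the 2-fold changes in data made from the tumor counts edgeR recovered 89%, with 3.12% of all calls false. For the response of WT lungs it recovered 93%, and 25.1% of calls were false under the limit of 0.25. False calls under both the FDR and the fold limit were not simulated. For control lungs it recovered 90% with 27.4% false calls, between tissues in WT hosts 87% with 3.12%, and for the genotype effect in tumor against lung 75% with 4.6%. Figures were drawn with matplotlib 3.10.9. Protein sequences, proteomic values and images were not analysed here.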

Additional observations from a re-analysis of the deposited data

Results flagged for a closer look

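In 54 tests of a gene in a group, 6 had a sample far from the others of its group, where chance alone flags about 1 group in 20. In tumors from KO hosts, replicate 5 was far above the rest for *Fth1* (724.1 CPM) and *Ftl1* (2157 CPM). *Trf* was far highest in WT host tumor replicate 6 (317.1 CPM). In lungs, *Ftl1* was far highest in KO 14-day replicate 6 (922.0 CPM), *Fth1* far highest in KO control replicate 1 (420.2 CPM) and *Fth1* far lowest in WT control replicate 2 (333.3 CPM).

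*Slc40a1* had genotype differences of opposite direction in tumors and in 14-day lungs. The difference between them was -1.15 on the log2 scale, in a comparison added after seeing the data that contains the lungs by which the gene was chosen. It ran from -1.26 to -1.04 with each of the 24 samples left out in turn.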

How the results depend on the processing

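Of 75 estimates for the 9 genes, 46 kept their direction and their side of the limits under every alternative. For the genotype effect in tumor against lung only *Slc40a1*, *Slc11a1* and *Blvrb* were counted, and the other genes were left out. Under at least 1 alternative 14 of the 75 estimates turned direction, all of them at most 0.2241 in size on the log2 scale. In 54 comparisons of a group's level between FPKM and CPM, 4 moved by 1 SD or more. *Slc40a1*, *Slc11a1* and *Blvrb* had the lowest counts of the 9 genes, and recovery of changes under 2-fold was not simulated.

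The replicate numbers were not used to pair samples, since deviations of same-numbered samples had correlations of -0.277 to 0.242, over 0.1 in 6 of 28 pairs, although a lung and a tumor may come from the same mouse. The cause of the changes below was not tested. With the replicate number as a block, the count of all genes called went from 42 to 129 in the response of KO lungs, from 92 to 152 in that of WT lungs and from 8 to 1 in the interaction, and *Slc11a1* in tumors was lost (0 of the 9 genes called). With GC offsets the counts were 21, 49 and 1 for these comparisons, 5 in control lungs (1 of them higher) against 37 (14 higher), and 0 of the 9 genes in tumors. GC offsets with the replicate block gave 88 in the response of KO lungs, 1 in the interaction, 5 in control lungs and 0 of the 9 genes in tumors. Between tumors and lungs of WT hosts 2555 of 6143 calls were higher in tumors, and 3350 of 6442 with GC offsets.

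The FDR limit alone gave 169 genes in the response of KO lungs, 373 in that of WT lungs, 138 in lungs at 14 days, 156 in control lungs, 347 in tumors (2 of the 9), and 12165 and 11957 between tissues in WT and KO hosts (6 and 9 of the 9). DESeq2 gave 178 genes in the interaction, 9 in control lungs and 200, against 114, for the genotype effect in tumor against lung. No filter on low counts gave 58 in the response of WT lungs and 7 in control lungs. At least 10 counts in every sample gave 3002 and 2831 genes between tissues in WT and KO hosts, against 6143 and 5982, with fewer genes tested. With only the groups compared there were 18 genes in lungs at 14 days, against 34, and 246 in control lungs. With DESeq2, with at least 10 counts and with only the groups compared, 1 of the 9 genes, *Slc40a1*, passed in the response of WT lungs.

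With each sample left out, all genes called ran from 2 to 60 in the response of KO lungs, 11 to 176 in that of WT lungs, 1 to 127 in the interaction, 22 to 52 in lungs at 14 days, 2 to 76 in control lungs and 46 to 201 for the genotype effect in tumor against lung. The 9 genes had 0 to 1 call in both responses, in tumors and for the genotype effect in tumor against lung, and 2 to 3 in WT and 3 to 4 in KO hosts between tissues.

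Estimates near 0 turned direction as follows. In the response of KO lungs *Tfrc* was -0.000273 with DESeq2, -0.000716 with RLE size factors and -0.0030 with at least 10 counts. In that of WT lungs GC offsets gave 0.0024 for *Hmox1*, -0.016 for *Tfrc*, 0.0087 for *Slc11a1* and 0.016 for *Trf*, or 0.011 with the replicate block. In the interaction *Tfrc* was 0.027 with GC offsets and 0.028 with the block added. In control lungs *Slc40a1* was -0.021 under both, and *Ftl1* 0.046 and 0.045. Between tissues in WT hosts *Slc40a1* was 0.068 and 0.065 under both, and *Fth1* was -0.030 with DESeq2 and with RLE size factors and -0.075 with at least 10 counts. With samples left out, *Hmox1* ran from -0.18 to 0.0072 and *Tfrc* from -0.028 to 0.042 in KO lungs. In WT lungs *Hmox1* ran from -0.13 to 0.032, *Tfrc* from -0.0094 to 0.13, *Slc11a1* from -0.29 to 0.033 and *Trf* from -0.054 to 0.0066. In the interaction *Hmox1* ran from -0.15 to 0.055, *Fth1* from -0.049 to 0.014 and *Tfrc* from -0.12 to 0.0066. *Slc40a1* in control lungs ran from -0.12 to 0.17, *Hmox1* in tumors from -0.0084 to 0.21 and *Fth1* between tissues in WT hosts from -0.023 to 0.030.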
